A study of Bos taurus and other sequences with 9 samples.

Results

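Culture medium with a commercial serum sold as depleted of extracellular vesicles (SBI-dFBS) was compared with medium holding untreated fetal bovine serum (FBS). The comparison used every sample that the labels give to these media, which are 4 of the 9 small RNA libraries of the study. The study sequenced small non-coding RNA (ncRNA) of extracellular vesicle (EV) preparations from 5 cell culture media. FBS-1 held FBS from Sigma and FBS-2 FBS from Gibco, and SBI-dFBS-1 and SBI-dFBS-2 held a different lot each of the depleted FBS of System Biosciences. All 4 had DMEM/F12 as basal medium and held no cells. No SBI-dFBS sample came from the serum of an FBS sample, so that depletion, supplier and lot cannot be told apart, and p-values measure only the spread between the samples of a fit. The spread in the fits across RNAs came from 8 samples, these 4 and those of 2 media with FBS depleted by ultracentrifugation (UC-dFBS) or ultrafiltration (UF-dFBS). Both of these media were made from the sera of FBS-1 and FBS-2, so that the samples that give the spread share sera, while the fit treats them as independent. Values are per preparation, so that fewer RNA carriers and less RNA per carrier cannot be told apart.

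Serum RNA is cell-free. MicroRNAs (miRNAs) circulate bound to Argonaute proteins, on lipoproteins or inside EVs, and many are typical of the cells that release them, such as liver cells, blood cells or the vessel wall. Most cell-free tRNA is found as fragments cut at the anticodon loop, whereas small nuclear RNAs (snRNAs) belong to the spliceosome, Y RNAs bind the Ro protein and small nucleolar RNAs (snoRNAs) guide chemical modification of other RNAs.

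The libraries differed in depth, from 603780 total counts in FBS-2 to 5970214 in SBI-dFBS-2, with 4003607 in FBS-1 and 4403408 in SBI-dFBS-1. Values are counts that the authors scaled to spike-ins added to each sample, and 1 spike-in normalized count stood for 4.84 counts in FBS-1, 7.45 in FBS-2, 9.04 in SBI-dFBS-1 and 3.78 in SBI-dFBS-2. The spike-ins were miRNA-sized, so that the scaling is, by the study's account, likely more accurate for miRNAs than for the other classes. Tests across RNAs used edgeR on counts with the spike-in factors as library sizes, and a log2 change is always SBI-dFBS minus FBS. The median change of all tested miRNAs was -1.70 on this scale, -0.44 with total counts as library sizes and 0.21 with TMM, a scaling that sets the typical RNA near 0. A direction therefore holds for the spike-in scale unless another is named.

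The media differed by class. Total miRNA was 42063 spike-in normalized counts in FBS-1, 16687 in FBS-2, 9584 in SBI-dFBS-1 and 16233 in SBI-dFBS-2. Both lots lay below both FBS samples, but lot 2 reached 0.973 of FBS-2. Total tRNA was 782752 in FBS-1, 63322 in FBS-2, 475655 in SBI-dFBS-1 and 1561872 in SBI-dFBS-2. Here FBS-2 was the low sample, the groups overlapped, and lot 2 had 3.28 times the tRNA of lot 1. Total snRNA (1081, 409, 1005 and 2158 in the same order) overlapped as well. Y RNA amounted to 532, 522, 594 and 252, with lot 1 above and lot 2 below both FBS samples, and snoRNA to 78.7, 53.0, 37.6 and 42.9, with both lots below. Exact permutation of the samples (two-sided, on log2 values) gave a p of 0.333 for miRNA and snoRNA, the smallest p that 2 samples against 2 allow, 0.667 for tRNA and snRNA and 1 for Y RNA.

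**Figure D1:**
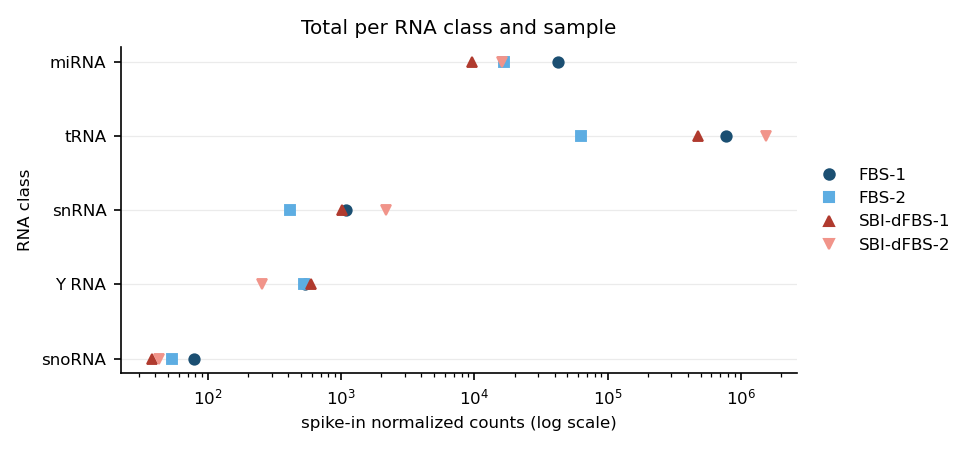
Total of each RNA class in spike-in normalized counts (x axis, log scale), 1 marker per sample with FBS in blue and SBI-dFBS in red. Both SBI-dFBS samples lie left of both FBS samples for miRNA and snoRNA, and FBS-2 is lowest for tRNA at 63322.

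Of 425 miRNAs, 163 had at least 10 counts in at least 2 of the 8 FBS-based samples of the fit and were tested. At an adjusted p below 0.05, 72 miRNAs were lower in SBI-dFBS (44.2% of those tested) and 2 were higher (1.23%). All 72 had both lots below both FBS samples, a position that 122 of the 163 tested miRNAs held (74.8%), while no tested miRNA had both lots above both FBS samples. The number lower was 21 without FBS-1, 61 without FBS-2, 8 without SBI-dFBS-1 and 41 without SBI-dFBS-2. In each of these fits 1 medium had a single sample, which was assumed to vary like the other media. With FBS and SBI-dFBS samples alone the number was 66. It was 7 with TMM and 13 with total counts, all of them among the 72. With TMM, 62 of the 72 still had a negative change, and with total counts 72 did, while 3 miRNAs were called higher with TMM (1.84%). As a share of the miRNA counts of its own sample, which uses no spike-in factor, 64 tested miRNAs (39.3%) were lower in both lots than in both FBS samples and 16 (9.82%) were higher in both.

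Each lot was also set against each FBS sample, in which the 4 comparisons share samples. Among tested miRNAs with a count in both, SBI-dFBS-1 was below FBS-1 for 151 of 160 and below FBS-2 for 136 of 159, with median log2 ratios of -2.03 and -1.34. SBI-dFBS-2 was below FBS-1 for 151 of 157 and below FBS-2 for 130 of 156, with medians of -1.87 and -1.22. Thus the lots differed little in this summary and the choice of FBS sample shifted it more. The log2 ratio of lot 2 to lot 1 had a median of 0.39, and that of FBS-1 to FBS-2 a median of 0.81.

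The liver miRNA hsa-miR-122-5p was the most abundant miRNA in every one of the 4 samples. It amounted to 19403 spike-in normalized counts in FBS-1, 4817 in FBS-2, 6517 in SBI-dFBS-1 and 11915 in SBI-dFBS-2. Both lots lay between the FBS samples, and the change of -0.39 ± 1.43 (log2, SE; edgeR, adjusted p = 0.813) did not pass the test. Its share of all miRNA counts was 46.1% and 28.9% in the FBS samples but 68.0% (Wilson 95% confidence interval 67.7 to 68.3%, counting error only) and 73.4% (73.1 to 73.7%) in the lots. Without hsa-miR-122-5p, total miRNA was 22660 and 11870 in FBS and 3066 and 4318 in SBI-dFBS, with a mean 78.6% lower and each lot between 0.135 and 0.364 of an FBS sample.

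The other liver miRNAs had the same position. hsa-miR-192-5p was 47.9 and 15.6 in FBS and 19.6 and 40.2 in SBI-dFBS, and hsa-miR-148a-3p was 403 and 133 against 144 and 158. In both the groups overlapped. Of 4 tested liver miRNAs 0 were called lower by edgeR and 0 had both lots below both FBS samples, against 44.2% and 74.8% of all tested miRNAs. Their median log2 change of -0.54 became 0.76 with total counts and 1.42 with TMM. The 5 tested miRNAs of red blood cells were alike, with 0 past edgeR's test and 1 with both lots below both FBS samples. Their median was -0.85 (0.32 with total counts, 1.05 with TMM). Among them, hsa-miR-486-5p was 126 and 237 in FBS and 132 and 60.1 in SBI-dFBS. hsa-miR-451a, which matures without Dicer, was 71.8 and 32.6 against 32.7 and 45.5. For hsa-miR-16-5p the values were 870 and 459 against 260 and 248, with both lots below but an adjusted p of 0.112 (edgeR).

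The let-7 family, which restrains genes of cell growth, was lower in every tested member. All 9 tested members passed edgeR's threshold, against 44.2% of all tested miRNAs, with a median log2 change of -2.80. The median stayed negative with total counts (-1.72), TMM (-0.94) and DESeq2's own size factors (-1.01), although hsa-let-7d-5p turned to 0.36 with TMM. With TMM 2 of the 9 were called lower, hsa-let-7c-5p and hsa-let-7e-5p, against 4.29% of all tested miRNAs. hsa-let-7a-5p was 2755 and 1669 spike-in normalized counts in FBS and 130 and 352 in SBI-dFBS, a change of -3.20 ± 0.98 (SE; edgeR, adjusted p = 0.00532). Both lots were far below both FBS samples, and lot 1 was the lower. hsa-let-7c-5p fell most, from 455 and 194 to 10.4 and 27.3, which is -4.12 ± 0.74 (edgeR, adjusted p = 1.43e-06). hsa-let-7d-5p fell least, from 41.5 and 20.8 to 10.3 and 11.4. Together the family held 19.2% and 27.5% of the miRNA values of FBS and 5.84% and 7.30% of those of SBI-dFBS.

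miRNAs of white blood cells and platelets were lower in 9 of 11 tested, and all 11 had both lots below both FBS samples, against 44.2% and 74.8% of all tested miRNAs. With TMM 3 of the 11 were called lower, against 4.29% of all tested miRNAs. Their median was -2.54, and it stayed negative with total counts (-1.42) and TMM (-0.66). hsa-miR-142-3p, found in all blood cell lineages, was 2759 and 821 in FBS and 120 and 494 in SBI-dFBS (-2.54 ± 0.92, SE; edgeR, adjusted p = 0.0166). The myeloid hsa-miR-223-3p was 308 and 201 in FBS against 3.98 and 6.35 in SBI-dFBS. That is 98.0% less and the lowest adjusted p of all (-5.64 ± 0.78; edgeR, 1.89e-10). The lymphocyte miRNAs hsa-miR-150-5p and hsa-miR-155-5p went from 15.3 and 10.3 to 0.111 and 0.529, and from 54.3 and 51.1 to 2.99 and 4.24. With 1 and 2 counts in the lots, hsa-miR-150-5p was near the limit of detection there. Among these 4 samples it reached the 10 counts of the filter only in FBS. The 2 that did not pass were hsa-miR-181a-5p and hsa-miR-181a-3p.

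miRNAs of the vessel wall had the lowest median of the lists, -3.39, with 4 of 5 past edgeR's threshold, against 44.2% of all tested miRNAs. With TMM 2 of 5 were called lower, against 4.29% of all tested miRNAs. The median was -2.36 with total counts and -1.61 with TMM. hsa-miR-126-3p of endothelial cells was 2116 and 1196 in FBS and 111 and 155 in SBI-dFBS (-3.64 ± 0.94, SE; edgeR, adjusted p = 0.00113). The smooth muscle miRNA hsa-miR-143-3p was 1313 and 431 against 40.6 and 81.0. Both lots lay far below both FBS samples for these miRNAs. hsa-miR-145-5p, which is made from the same transcript as hsa-miR-143-3p, was 25.2 and 9.12 against 5.86 and 8.74 and did not pass (edgeR, adjusted p = 0.135). The list made up 8.99% and 11.1% of miRNA values in FBS and 1.90% and 1.72% in SBI-dFBS.

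**Figure D2:**
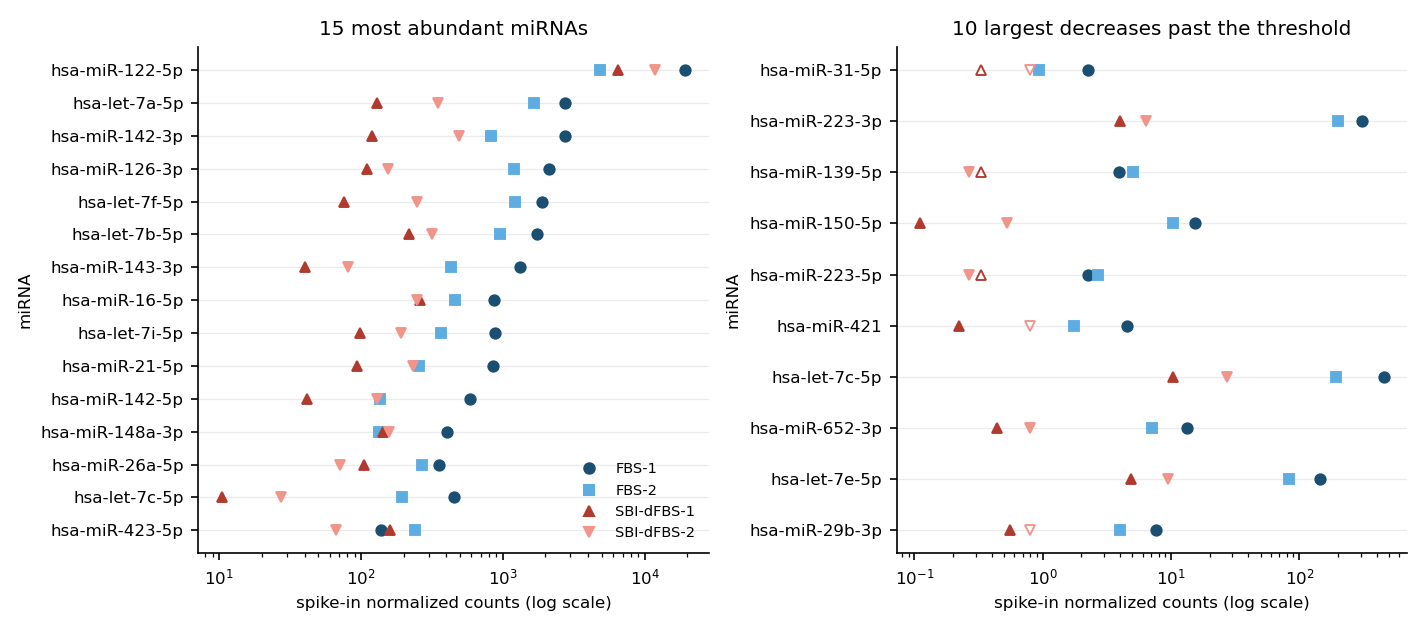
Spike-in normalized counts (x axis, log scale) of the 15 most abundant miRNAs of the 4 samples (left) and of the 10 largest decreases past the threshold (right), 1 marker per sample. Open markers are samples with no count, drawn at the floor of 3 counts. The markers of hsa-miR-122-5p overlap between media, whereas those of hsa-let-7a-5p, hsa-miR-126-3p and hsa-miR-223-3p lie apart.

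Several of the largest decreases were of scarce miRNAs. hsa-miR-31-5p had 11 and 7 counts in FBS and none in either lot, which against the mean floor of 3 counts per library is at least 2.85-fold lower. hsa-miR-139-5p (3.92 and 5.10 spike-in normalized counts in FBS) and hsa-miR-223-5p (2.27 and 2.68) had no count in lot 1 and 1 count in lot 2. hsa-miR-421 (4.54 and 1.74) and hsa-miR-29b-3p (7.64 and 4.02) had none in lot 2. hsa-miR-652-3p was 13.2 and 7.11 in FBS and 0.442 and 0.794 in SBI-dFBS. All of these passed edgeR's test, with adjusted p between 0.000524 and 0.00644, but their sizes rest on few counts in the lots.

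The 2 miRNAs called higher rested on lot 1. hsa-miR-133a-3p, a miRNA of heart and skeletal muscle, was 0.826 and 1.34 spike-in normalized counts in FBS, 43.0 in SBI-dFBS-1 and 1.06 in SBI-dFBS-2 (4.33 ± 0.87, SE; edgeR, adjusted p = 2.12e-05). Lot 1 stood alone, and lot 2 lay between the FBS samples. hsa-miR-4532 was 2.27 and 0 in FBS, 8.96 in lot 1 and 1.06 in lot 2, so that its groups overlapped too (2.31 ± 0.97; edgeR, adjusted p = 0.0413). Without SBI-dFBS-1 the number called higher was 0, and without FBS-2 it was 0 too.

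Other muscle miRNAs were highest in lot 1. hsa-miR-206 of skeletal muscle was 0.619 and 0.939 in FBS, 4.64 in lot 1 and 1.06 in lot 2. hsa-miR-499a-5p, encoded in a myosin gene, was 0 and 0.671 in FBS, 7.19 in lot 1 and 0.529 in lot 2. hsa-miR-208b-3p of slow muscle and heart was 0.413 and 0.134, 3.10 and 0.265. These 3 had too few counts for the test, at 42, 65 and 28 counts in lot 1 and at most 4 in lot 2. hsa-miR-1, in contrast, overlapped between the media, at 6.61 and 2.95 in FBS and 5.53 and 2.12 in SBI-dFBS. The 8 listed muscle miRNAs summed to 8.46 and 6.30 in FBS, 64.1 in lot 1 and 5.03 in lot 2.

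Other miRNA groups lay between the liver and the vessel wall. All 7 tested miRNAs of the miR-30 family had both lots below both FBS samples and 5 were lower by edgeR, against 74.8% and 44.2% of all tested miRNAs, with a median of -2.17. With TMM 0 of the 7 were called by edgeR, where 4.29% of all tested miRNAs were called lower. hsa-miR-30d-5p was 82.0 and 47.4 in FBS and 6.86 and 10.6 in SBI-dFBS. In the miR-23, miR-24 and miR-27 clusters 3 of 5 were lower (median -2.21), and in the miR-26, miR-29 and miR-148 group 4 of 9 (median -1.82), the latter a share like that of all tested miRNAs. Of the miR-10, miR-99 and miR-125 group, encoded in Hox clusters and related loci, 3 of 7 were lower, again close to the overall share, among them hsa-miR-10b-5p with 58.0 and 63.7 in FBS and 9.73 and 11.9 in SBI-dFBS. With TMM the median stayed below 0 for miR-30 (-0.28) and for miR-23, miR-24 and miR-27 (-0.27) and rose above 0 for the miR-10 group (0.31).

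In most other families the share called lower was below the 44.2% of all tested miRNAs. Of the 10 tested miRNAs of the miR-17-92 cluster and its paralogs, 2 were lower, with a median of -1.13 (0.69 with TMM). hsa-miR-25-3p was 174 and 155 in FBS and 93.5 and 80.5 in SBI-dFBS, while hsa-miR-92a-3p was 25.2 and 23.9 in FBS, 36.6 in lot 1 and 11.1 in lot 2, with the lots on opposite sides. Of 20 tested miRNAs of the imprinted DLK1-DIO3 region, which are typical of embryonic and fetal tissue, 3 were lower (hsa-miR-379-5p, hsa-miR-382-5p and hsa-miR-409-3p), with a median that was negative on the spike-in scale and 0.82 with TMM. Its most abundant member hsa-miR-432-5p was 238 and 124 in FBS and 70.9 and 114 in SBI-dFBS (edgeR, adjusted p = 0.186). The miR-15, miR-16 and miR-103 family had 1 of 7 lower, the miR-320 family 1 of 4, and the miR-199 and miR-214 group 3 of 5. Since hsa-miR-199a-3p and hsa-miR-199b-3p have the same mature sequence, their values of 324 and 123 against 66.3 and 68.0, and of 216 and 92.4 against 47.5 and 55.3, cannot be told apart by gene. Of 5 tested epithelial miRNAs only hsa-miR-31-5p passed, with a list median of -2.14, or -1.51 with hsa-miR-31-5p at its bound. hsa-miR-1246, which with hsa-miR-4532 made up the tested miRNAs of atypical origin, was 11.8 and 4.29 in FBS and 11.7 and 20.7 in SBI-dFBS. It did not pass on the spike-in scale (edgeR, adjusted p = 0.220). With TMM it was called higher (2.90 ± 0.55, SE; edgeR, adjusted p = 0.00474), although its groups overlapped on the spike-in scale.

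**Figure D3:**
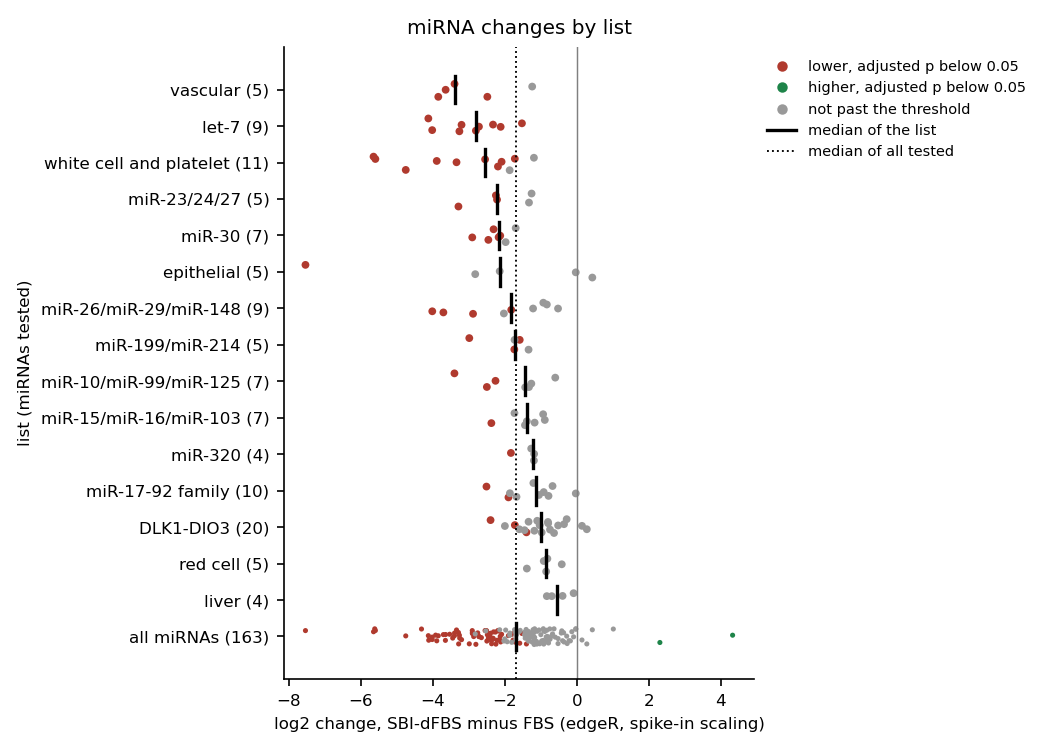
log2 change of each tested miRNA (points), grouped by list with the number tested in brackets. Thick bars are list medians and the dotted line is the median of all 163, at -1.70. Lists run from the vessel wall (-3.39) to the liver (-0.54), and the muscle and atypical lists, with 2 tested each, and the lists of carriers are not drawn.

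Both arms were tested for 19 hairpins. The changes of the arms differed by a median of 0.61 on the log2 scale, against 1.16 for any pair of tested miRNAs. hsa-miR-126 fell in both arms (-3.39 and -3.64) and hsa-miR-142 as well (-2.09 and -2.54), while for hsa-miR-542 the arms differed by 2.25.

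The study's literature marks on where a miRNA is carried in serum were also used. Of 34 tested miRNAs marked as vesicular or as both, 22 were lower by edgeR and 31 had both lots below both FBS samples, where 44.2% and 74.8% of all tested miRNAs did. The numbers were 36 and 62 of 82 for miRNAs marked as non-vesicular only, close to the overall shares, and 14 and 29 of 47 for those without a mark. The medians were -2.41, -1.75 and -1.19, and with TMM -0.60, 0.05 and 0.59. As a share of all miRNA values, those marked as vesicular or both lay below the FBS range, with 28.3% and 37.5% in FBS and 10.5% and 11.4% in SBI-dFBS. In SBI-dFBS most of the remainder was hsa-miR-122-5p, which is marked as non-vesicular only. Of the 19 tested miRNAs that are often reported in EVs of cultured cells, 6 were lower, a smaller share than the 44.2% of all tested miRNAs.

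With detection set at more than 1 spike-in normalized count, 117 of the 425 miRNAs (27.5%) were kept, that is, detected in all 4 samples. They held between 98.6% and 99.5% of the miRNA values of each sample. In both FBS samples but neither lot were 27 miRNAs (6.35%), and in both FBS samples but a single lot 22 (5.18%). The 27 lost miRNAs were scarce in FBS, with a highest mean of 12.8 (hsa-miR-150-5p) and a share of 0.266% and 0.459% of miRNA values. Of the 117 kept miRNAs, all of which were tested, 47 were lower by edgeR, against 44.2% of all tested miRNAs. In no FBS sample but in at least 1 lot were 4 miRNAs (0.941%), which were hsa-miR-206, hsa-miR-499a-5p, hsa-miR-208b-3p and hsa-miR-484, the last with 1.66 in lot 1 and 0.265 in lot 2.

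For the other small ncRNAs, 363 of 1361 loci and 68 of 215 families were tested, and edgeR called 0 of either in either direction. At an unadjusted p below 0.05 there were 4 loci and 1 family, and DESeq2 called 0 families with either scaling and 1 locus with its own size factors. On simulated data these fits found none of the loci and families that had been changed, so that the absence of calls says little about these RNAs. The loci are human GRCh37 loci to which bovine reads were mapped, and copies of a family share reads, so that families are given by their sums.

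Among 54 tested tRNA isotypes, that is, tRNAs with the same amino acid and anticodon, 12 had both lots above both FBS samples and 1 had both below. Over all tested families the shares were 22.1% and 7.35%. The direction depended on the scaling: the median over all tested families was 0.95 on the spike-in scale, -0.41 with TMM and -0.90 with total counts. The isotypes above were the 2 of glutamate, AsnGTT, LysCTT, PheGAA, ThrAGT, ThrCGT, TrpCCA, ValAAC, ValCAC and tRNA-like pseudogenes with the anticodons GAA and CTC. Of these, AsnGTT and the CTC pseudogenes had a negative fitted change with TMM, and with total counts these and GluTTC did.

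tRNA-GluTTC was 39804 spike-in normalized counts in FBS-1, 18205 in FBS-2, 66845 in SBI-dFBS-1 and 122741 in SBI-dFBS-2. Both lots were above both FBS samples, by 1.68 to 6.74 times. tRNA-GluCTC was 2252, 485, 5957 and 10527 in the same order, 2.65 to 21.7 times an FBS sample. Its change was 2.59 ± 2.00 (log2, SE), and it stayed above 0 with TMM (1.45) and total counts (0.88), whereas tRNA-GluTTC turned to -0.61 with total counts. All 9 tested GluCTC loci and 7 of 10 GluTTC loci had both lots above both FBS samples, against 22.3% of all tested loci. These copies share reads and are not separate measurements, with changes from 2.44 to 2.70 for GluCTC loci. Fragments of glutamate and glycine tRNA are among the most common small RNAs of mammalian serum.

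The 2 most abundant isotypes overlapped between the media. tRNA-HisGTG was 498743 in FBS-1, 4187 in FBS-2, 189591 in SBI-dFBS-1 and 900734 in SBI-dFBS-2. FBS-2 was the exception, with lot 2 at 215 times its value and at 1.81 times that of FBS-1. Of tRNA counts, tRNA-HisGTG held 63.7% for FBS-1 and 6.61% for FBS-2, against 39.9% and 57.7% in the lots. tRNA-GlyCCC was 158831, 35331, 150446 and 334033, where lot 1 lay between the FBS samples. It made up 20.3%, 55.8%, 31.6% and 21.4% of tRNA counts.

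In valine and lysine isotypes FBS-2 was far below the other samples. tRNA-ValAAC was 16978 and 253 in the FBS samples, and 21330 and 38410 in the lots. tRNA-ValCAC was 18629 and 282, and 23886 and 42101. tRNA-LysCTT was 1224 and 33.7 in FBS and 1753 and 3492 in SBI-dFBS. In all 3 the lots were above both FBS samples, but by 1.26 to 2.85 times FBS-1 and by 52.1 to 152 times FBS-2. In tRNA-ValTAC and tRNA-LysTTT, by contrast, lot 1 lay between the FBS samples. tRNA-ValTAC was 6904 and 63.9 in FBS and 3209 and 19013 in SBI-dFBS. For tRNA-LysTTT the values were 1062 and 71.4 against 1007 and 2871. By amino acid, all valine tRNA came to 42511, 599, 48425 and 99524, and all lysine tRNA to 2286, 105, 2760 and 6362.

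In other isotypes the lots differed several fold. tRNA-SerAGA was 964 and 7.65 in the FBS samples, and 61.7 and 602 in the lots. tRNA-AlaTGC was 12895 and 1184, and 3580 and 31667. tRNA-GlyGCC was 3882 and 431, and 1371 and 10501, a 7.66-fold difference between lots. In all of these FBS-2 and lot 1 were low and FBS-1 and lot 2 high. Of 53 tested tRNA isotypes with a count in both lots, 44 were higher in lot 2, and of 52 with a count in both FBS samples all 52 were higher in FBS-1.

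tRNA-GlnCTG was the isotype with both lots below both FBS samples, at 39.2 and 10.3 in FBS and 8.29 and 4.50 in SBI-dFBS (-1.95 ± 1.03, log2, SE; edgeR, adjusted p = 0.888). It was below 0 on every scale, with -2.70 by TMM and -3.37 by total counts. Of its 6 tested loci 5 had both lots below both FBS samples, against 5.23% of all tested loci, but these copies share reads. tRNA99-GlnCTG, tRNA3-GlnCTG and tRNA49-GlnCTG had 10 to 28 counts in an FBS sample and at most 9 in a lot. Among these 4 samples they reached the 10 counts of the filter only in FBS, so that their position is no separate support. At the other end, the pseudogenes with anticodon GAA were 139 and 30.5 in FBS, 243 in lot 1 and 2108 in lot 2 (3.80 ± 1.67; 1.91 with TMM). The values came from a pair of loci, tRNA92-PseudoGAA at chr1:149672905-149672976 and tRNA100-PseudoGAA at chr1:149287359-149287430, both on the minus strand, with 1077 and 1031 in lot 2. tRNA-PheGAA, whose anticodon these pseudogenes share, was 1.86, 0.939, 8.40 and 5.03, from 9 and 7 counts in FBS and 76 and 19 in the lots. Among these 4 samples it reached the 10 counts of the filter only in the lots. It was the single family of 68 tested with an unadjusted p below 0.05 (2.27 ± 0.90; edgeR, unadjusted p = 0.0388, adjusted p = 0.888). A single such p among 68 is no support for a change.

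**Figure D4:**
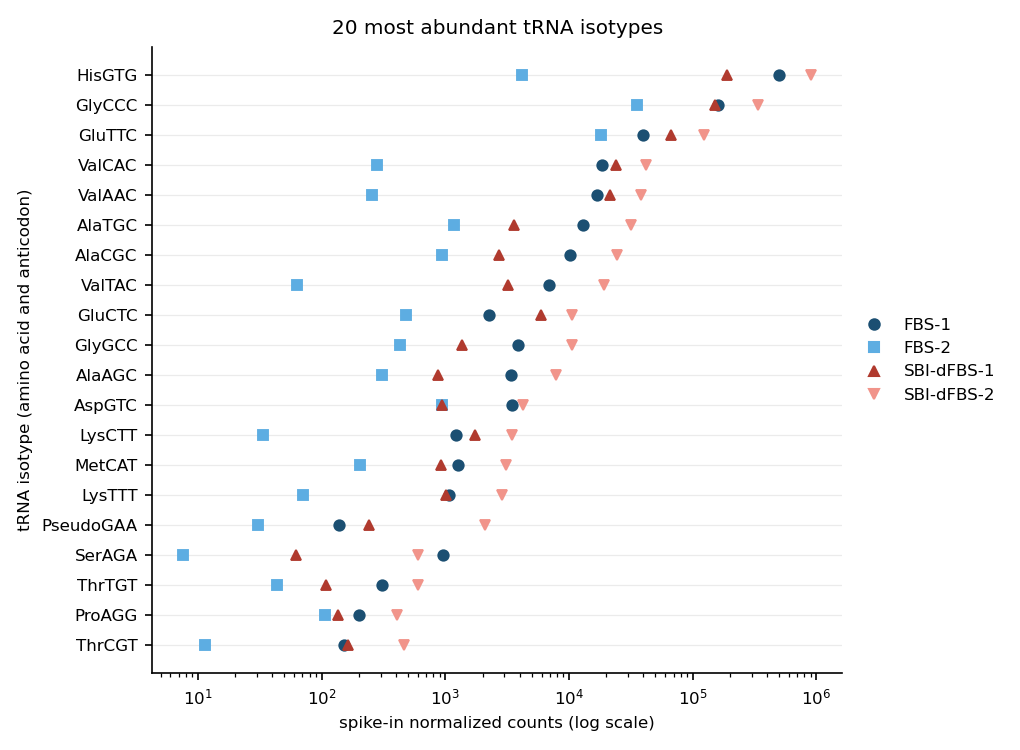
Spike-in normalized counts (x axis, log scale) of the 20 most abundant tRNA isotypes, each named by amino acid and anticodon, 1 marker per sample. FBS-2 is lowest in most rows, at 4187 for HisGTG and 253 for ValAAC, and SBI-dFBS-2 is highest in most.

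At locus level, 74 of 296 tested tRNA loci had both lots above both FBS samples and 7 had both below, near the 22.3% and 5.23% of all tested loci. SBI-dFBS-1 was below FBS-1 for 215 of 295 tRNA loci but above FBS-2 for 263 of 284, with median log2 ratios of -1.06 and 2.31. SBI-dFBS-2 was above FBS-1 for 234 of 290 and above FBS-2 for 272 of 279 (1.06 and 4.57). The direction of lot 1 thus depended on the FBS sample. The most abundant tRNA loci were tRNA34-GlyCCC at chr16:686736-686806 and tRNA27-GlyCCC at chr2:70476123-70476193, both on the minus strand, with 82732 and 75377 in FBS-1, 18584 and 16673 in FBS-2, 77762 and 72468 in SBI-dFBS-1 and 172453 and 159442 in SBI-dFBS-2.

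Among snRNAs, U11 was higher in both lots. U11, the minor spliceosome RNA that recognises the start of rare introns, was 178 in FBS-1, 114 in FBS-2, 665 in SBI-dFBS-1 and 294 in SBI-dFBS-2. Lot 1 had the most, and the log2 change of 1.71 (edgeR, adjusted p = 0.888) was 0.43 with TMM and turned to -0.34 with total counts. Nearly all of it came from RNU11-201 at chr1:28975112-28975245 on the plus strand. U11 took 66.2% of the snRNA counts of lot 1, against 13.6% in lot 2 and 16.5% and 28.0% in FBS. U12, its partner, was 79.1 and 70.2 in FBS, 60.4 in lot 1 and 122 in lot 2.

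U4, which holds U6 inactive until the spliceosome is activated, was 557 in FBS-1, 6.71 in FBS-2, 33.9 in SBI-dFBS-1 and 1591 in SBI-dFBS-2. Both media thus had a sample with much and a sample with little U4, and lot 2 had 46.9 times that of lot 1. It took 51.5% of snRNA counts in FBS-1, 1.64% in FBS-2, 3.38% in lot 1 and 73.7% in lot 2. U1, which recognises the start of most introns, was 79.7, 73.2, 115 and 13.8, so that lot 1 was above and lot 2 below both FBS samples. Of 19 tested U1 loci 16 showed the lots on opposite sides, against 9.37% of all tested loci, but these copies share reads. U2, which binds the branch point, was 174, 135, 122 and 129, with both lots just below FBS-2, at 0.903 and 0.952 of it. U6 was 9.08 and 4.70 in FBS and 3.65 and 3.71 in SBI-dFBS. Of 8 tested snRNA families, U11 and U7 had both lots above (25%), close to the 22.1% of all tested families, and U7 turned to -1.47 with TMM. U2 and U6 had both lots below (25%, against 7.35% of all tested families).

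Y RNA came to 238 loci, of which 20 were tested. Y_RNA.384-201 at chr7:6252269-6252371 (minus strand) was the most abundant, at 148 and 158 in FBS, 184 in lot 1 and 59.8 in lot 2. Y_RNA.493-201 was 119 and 137, 119 and 52.4, and Y_RNA.696-201 73.7 and 92.2, 66.8 and 28.3. Lot 2 was the lowest sample for all 3. Of 16 tested Y RNA loci with a count in both lots, 15 were lower in lot 2, with a median log2 ratio of lot 2 to lot 1 of -1.21. Y RNA loci had both lots below both FBS samples in 6 of 20, both above in 3 and the lots on opposite sides in 6. The shares of all tested loci were 5.23%, 22.3% and 9.37%. Of the 6 below, 4 had no count in the lots. Among the FBS and SBI-dFBS samples, these 4 reached the count minimum of the filter only in FBS. Their position is therefore no separate support, and 6 of 20 against 5.23% is no evidence of lower Y RNA.

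A few Y RNA loci were lost or higher in both lots. Y_RNA.601-201 at chr15:69698780-69698891 (plus strand) was 2.89 and 2.68 in FBS and had no count in either lot, which is at least 4.95-fold lower. Y_RNA.16-201 (4.13 and 1.34 in FBS) and Y_RNA.312-201 (3.51 and 1.74) had no count in the lots either, at least 4.86-fold and 4.67-fold lower, and Y_RNA.622-201 (2.06 and 1.74) was at least 3.38-fold lower. In contrast, Y_RNA.725-201 at chr9:72926523-72926617 was 0.413 and 0.671 in FBS and 6.30 and 3.18 in SBI-dFBS, and Y_RNA.125-201 at chr9:34194810-34194905 was 1.03 and 1.21 against 8.85 and 4.24. These loci had between 2 and 20 counts in an FBS sample, and none passed edgeR's adjusted test. Among the FBS and SBI-dFBS samples, the loci without a count in the lots reached the count minimum of the filter only in FBS. Y_RNA.725-201 and Y_RNA.125-201 reached it only in the lots. The position of these loci is therefore no separate support for a change.

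Among snoRNAs, 5 of 163 loci were tested. SNORD94, a C/D box snoRNA, was 35.9 and 37.7 in FBS and 29.4 and 27.5 in SBI-dFBS, and it held between 45.7% and 78.2% of the snoRNA counts of a sample. Both lots were at 0.730 to 0.819 of an FBS sample. SCARNA15, a guide RNA of Cajal bodies, was 8.46 and 6.57 against 2.10 and 2.91, with the lots at 0.248 to 0.443 of an FBS sample (-1.59 ± 0.86, log2, SE; edgeR, adjusted p = 0.888, and below 0 on every scale). SNORD57 had 79 counts in FBS-1 and 18 in SBI-dFBS-2 but none in FBS-2 or SBI-dFBS-1, which were also the samples with little U4. SNORD20 was 0.619 and 0.134 in FBS and 1.44 and 0.794 in SBI-dFBS, from 13 counts or fewer.

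**Figure D5:**
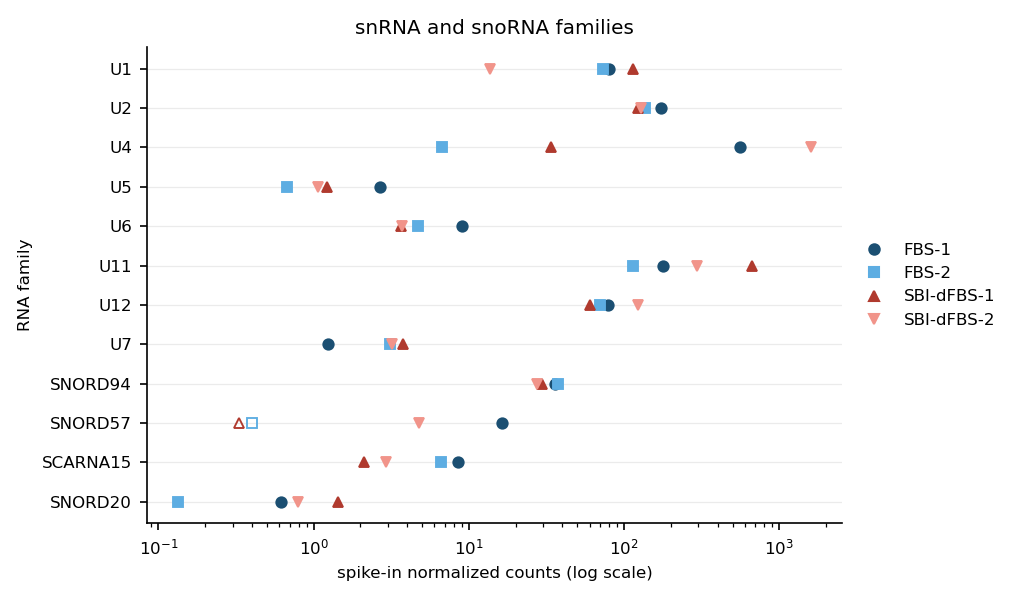
Spike-in normalized counts (x axis, log scale) of snRNA and snoRNA families, 1 marker per sample. Open markers are samples with no count, drawn at the floor of 3 counts. U11 is higher in both SBI-dFBS samples, U1 is lowest in SBI-dFBS-2 at 13.8, and U4 and SNORD57 are high in FBS-1 and SBI-dFBS-2.

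By the same detection rule, 193 of the 1361 other loci (14.2%) were kept, 10 (0.735%) were lost, 30 (2.2%) were kept in 1 lot and 33 (2.42%) were gained in at least 1 lot. Of the kept loci 164 were tRNA (30.9% of the 530 tRNA loci), and of the gained loci 23 were tRNA (4.34%). Lost loci were 4 tRNA (0.755%), 1 snRNA (0.239% of the 419 snRNA loci) and 5 Y RNA (2.10% of the 238 Y RNA loci). Of the 30 loci kept in 1 lot, 16 were snRNA (3.82%). At family level 56 of 215 (26.0%) were kept, 0 were lost and 3 (1.4%) were gained, while tRNA-LeuTAA (0.465%) was kept in lot 1 alone, at 4.54 and 1.21 in FBS, 2.76 in lot 1 and no count in lot 2.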

How the data were processed

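Small RNA of EV preparations was sequenced with the QIAseq miRNA Library Kit, which tags molecules with unique molecular indices (UMIs). The authors trimmed reads with cutadapt 1.11, merged reads that shared insert and UMI, and used Bowtie2 2.2.2 for mapping to miRBase and human GRCh37 (tool versions from the submitters' processing notes). The deposited counts are such reads per miRNA or locus, not normalized. The deposited spike-in normalized counts are a signal that the authors obtained by dividing counts by a factor per sample from external spike-ins. How reads with several loci were placed is not given in the sources used here, and 604 loci had counts equal to those of another locus.

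Ratios, shares with Wilson 95% intervals and floors of 3 counts were computed in python 3.11.15 with pandas 2.3.3 and scipy 1.17.1. The quasi-likelihood test of edgeR 4.0.16 was run in R 4.3.3, with p-values adjusted by Benjamini-Hochberg over all RNAs tested, on the 8 FBS-based samples with medium as the only term (UC-dFBS and UF-dFBS were made from the FBS-1 and FBS-2 sera, which the fit ignores), separately for miRNAs, loci and families. An RNA entered when 2 or more samples held 10 or more counts. The SE given with an edgeR change was derived from the test. It is the absolute log2 change divided by the square root of the F statistic. StemPRO, a single sample, was left out. Alternatives were DESeq2 1.42.0, TMM, total counts, other filters, other samples, a replicate block and counting identical loci once. RNAs named singly were the 15 most abundant miRNAs, up to 10 changes per direction past the threshold with groups apart, members of lists by cell type or family, and, per class, the 3 most abundant and the most changed loci whose groups do not overlap. Others were named after their values were seen. Members and lists were chosen with earlier results of these data known. The fits were tested on simulated data with known changes. For miRNAs they found 14 of 34 changes of log2 2 (0 false calls) and 40 of 41 of log2 4 (2 false calls). A miRNA that did not pass may therefore still differ by a log2 change of 2. None of the changed loci or families were found.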

Additional observations from a re-analysis of the deposited data

Results flagged for a closer look

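Where the lots lay on opposite sides of both FBS samples, the difference between them was not tested, since each lot is 1 sample. This position was held by 6 of the 68 tested families (8.82%). They were Y RNA, U1, U12, tRNA-GlyTCC, tRNA-TyrGTA and SCARNA17. Total Y RNA of lot 1 was 2.36 times that of lot 2, with 594 and 252 spike-in normalized counts against 532 and 522 in FBS. For U1 the ratio of lot 1 to lot 2 was 8.33, from 115 and 13.8 against 79.7 and 73.2. For U12 it was 0.495, from 60.4 and 122 against 79.1 and 70.2.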

How the results depend on the processing

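The miRNA decreases depended on the scaling and on single samples. Against 72 lower miRNAs there were 7 with TMM, 13 with total counts, 8 with DESeq2's own size factors, 45 with 10 counts required in each of the 4 samples, and 8 to 61 when 1 sample was left out. DESeq2 with spike-in factors gave 55. Against 2 higher there was 1 with DESeq2 and spike-in factors, 1 with FBS and SBI-dFBS alone, 1 without UF-dFBS, 0 with 10 counts in each sample and 0 to 2 with 1 sample left out. For other loci, DESeq2 with its own size factors called 1 lower, against 0.

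As log2 changes of class totals, snRNA went from 1.09 to -0.89 as a share of all counts, and Y RNA from -0.32 to between -1.07 and 0.17 with 1 sample left out. The number of kept, lost, 1-lot and gained miRNAs (117, 27, 22 and 4) was 214 kept, 44 in 1 lot and 30 gained at a threshold of 0.1, 73 kept and 12 in 1 lot at 5, 38 in 1 lot with more than 3 counts, and 54 lost, 41 in 1 lot and 0 gained with detection by CPM above 1. Leaving out a sample gave 30 to 65 lost and 1 to 11 gained. Fewer samples must then meet the rule for lost RNAs, so that their number cannot fall and its rise is no result. For other loci (193, 10, 30 and 33) the numbers were 407, 54, 78 and 195 at 0.1, 1 lost and 0 in 1 lot at 5, 18 lost and 62 gained with more than 3 counts, and 296, 32, 54 and 18 with detection by CPM above 1. With a sample left out 13 to 43 were lost, 32 to 63 were in 1 lot and 18 to 162 gained, and the number lost cannot fall here either.

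Of the 72 called lower, 62 stayed negative with TMM and 67 with DESeq2's own factors. Among the most abundant, hsa-miR-21-5p turned (0.15 and 0.063), as did hsa-miR-26a-5p with TMM (0.0061). hsa-miR-122-5p was 1.59 with TMM, 0.91 with total counts, 1.48 with DESeq2's own factors and -1.07 to 0.94 with a sample left out. In the same order of scalings hsa-miR-148a-3p was 1.14, 0.49 and 1.01 (-1.42 to 0.18 with a sample left out) and hsa-miR-423-5p 0.93, 0.23 and 0.81, and hsa-miR-16-5p was 0.49 with TMM and 0.37 with DESeq2. With total counts tRNA-GluTTC was -0.61, tRNA-GlyCCC -0.51, tRNA-GlyGCC -0.28, tRNA-AlaTGC -0.33, tRNA-AspGTC -2.01, U11 -0.34 and U12 -2.54. With TMM tRNA-AlaTGC was -0.071, tRNA-AspGTC -1.52 and U12 -1.85, and with DESeq2's own factors tRNA-AspGTC was -1.17 and U12 -1.60. Leaving out a sample gave ranges of -0.65 to 3.78 for tRNA-GlyGCC, -0.41 to 7.02 for tRNA-HisGTG and -0.12 to 7.44 for tRNA-ValTAC. The range was -0.98 to 3.90 for tRNA-AlaTGC, -1.21 to 1.48 for tRNA-AspGTC and -2.98 to 5.44 for tRNA-SerAGA. It was -2.47 to 0.58 for U1, -3.05 to 6.92 for U4, -0.31 to 0.71 for U12 and -1.07 to 0.17 for Y_RNA. The cause of these shifts was not tested. SNORD57 ranged from -10.05 to 8.22. Without FBS-1 or without SBI-dFBS-2, however, SNORD57 had no count in 1 medium. The ends of its range therefore depend on how the fit handles zeros and are not measured changes.

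The replicate numbers do not pair FBS with SBI-dFBS, since no serum is shared, but they mark the serum in FBS, UC-dFBS and UF-dFBS. A replicate block gave 65 lower and 2 higher miRNAs and 0 loci and families, and turned hsa-miR-122-5p to 0.059, tRNA-SerAGA to 4.25 and SNORD57 to 2.62. Deviations of samples with the same number correlated at -0.22 for miRNAs and -0.56 for other loci between FBS and SBI-dFBS, at 0.49 and 0.74 between FBS and UC-dFBS, and at 0.055 and 0.61 between FBS and UF-dFBS. With the numbers of SBI-dFBS crossed, a choice made after seeing the data, 98 miRNAs were lower and 3 higher, 0 loci and families were called, and tRNA-SerAGA was 1.46.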
